A study of Mus musculus with 24 samples.

Results

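The genes described here are 8 genes that mature adipocytes are known for, measured in mouse colon: Lep, Adipoq, Retn and Cfd, whose products are secreted, Plin1, Plin4 and Cidec, whose products sit on lipid droplets, and Fabp4, a fatty acid carrier of the cytoplasm. They were chosen by symbol from 23329 symbols, with the transcript counts of a symbol summed, and with the knowledge that several of them spread widely between colon wall libraries. Their levels and spread in the wall are therefore given as a description. RNA was sequenced from 24 libraries of C57Bl/6 mice in 6 groups of 4. All mice carried VilCre, a Cre recombinase under the villin promoter, which is active in intestinal epithelium. Mice with VilCre alone are called control, and mice with VilCre-CMVcaNrf2, in which Cre switches on a constitutively active Nrf2, are called caNrf2. The 4 colon wall groups were control and caNrf2 mice, each untreated or given Dextran Sulfate Sodium (DSS), a polymer that injures the colon lining when drunk. The 2 other groups were epithelial cells of untreated control and caNrf2 mice. A wall library came from the whole thickness of a short piece of distal colon, so it could hold any cell of the wall and of tissue attached to it, while adipocytes are not cells in which VilCre is expected to act. The labels give no age and do not say whether the libraries of a group came from separate animals, so the p-values speak only of how these libraries spread.

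Adipocytes store triglyceride in a droplet coated by perilipins, release fatty acids from it on demand, and secrete hormones and other proteins into the blood. In the gut, mature adipocytes lie mainly outside the muscle coat, in the mesentery and in fat attached to the serosa, the outer surface that mesothelium covers. Several of the 8 genes are not restricted to adipocytes: Fabp4 is also made by capillary endothelium and macrophages, Plin4 by heart and skeletal muscle, and Cidec by liver under some conditions.

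The proximal promoters of 3 genes that moved together between libraries, and of Plin4, which did not move with them, are shown to let the reader compare what precedes their starts. Each line gives the 120 bases before the RefSeq start on the gene's strand, from build GRCm38.p6, and capitals mark a match to 1 of the motifs searched.
Lep, chr6:29060101-29060220, plus strand: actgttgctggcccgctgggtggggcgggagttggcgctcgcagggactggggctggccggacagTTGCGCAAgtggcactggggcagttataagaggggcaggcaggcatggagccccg
Plin1, chr7:79732777-79732896, minus strand: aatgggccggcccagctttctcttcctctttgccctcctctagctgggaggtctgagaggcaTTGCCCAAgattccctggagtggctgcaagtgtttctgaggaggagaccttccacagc
Adipoq, chr16:23146416-23146535, plus strand: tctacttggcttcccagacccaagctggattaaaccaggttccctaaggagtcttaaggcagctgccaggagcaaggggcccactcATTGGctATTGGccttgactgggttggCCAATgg
Plin4, chr17:56109783-56109902, minus strand: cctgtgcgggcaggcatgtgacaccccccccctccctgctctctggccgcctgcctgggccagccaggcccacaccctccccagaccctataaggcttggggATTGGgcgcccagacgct
The capitals in Lep and Plin1 are a C/EBP-type word, TTGCNNAA, which started 55 bases before the start of Lep and 58 bases before that of Plin1. C/EBP proteins are transcription factors of adipocyte differentiation. The capitals in Adipoq and Plin4 are the CCAAT box, read on either strand. Windows of 300 bases, 250 before and 50 after the start, were searched on both strands for 7 members with 8 windows, and 3 windows, those of Lep, Plin1 and 1 of the 2 of Cidec, held the C/EBP-type word. It occurred in 10.8% of 32851 mouse windows of this length, and the CCAAT box, found in 2 member windows, in 37.4%. The nuclear receptor word AGGTCA, the same word repeated with 1 base between the copies, the TATA box TATAAA and the E-box CACGTG were found in 0 of the 8 windows, against 16.3%, 0.0396%, 13.6% and 7.15% of all windows. The TATA box was searched only as the exact word TATAAA. The near word tataag, which the printed lines of Lep and Plin4 contain, was not counted, so a TATA element there is not excluded. The matches describe letters, not binding. The windows of Retn and Cfd, which moved together with the 3 genes printed, held no match to any motif searched. The printed lines are thus no contrast of all genes that moved together with Plin4.

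Sequencing depth was 20232309 to 154336039 counts in wall libraries and 6683803 to 15399862 in epithelial libraries. Levels are given as counts per 1000000 (CPM), with library totals scaled by TMM, a factor that evens out composition, and errors are SD over 4 libraries unless SE is written. Nfe2l2, the gene of the transgene's product, was at 99.5 to 168 CPM in control wall libraries and 148 to 285 CPM in caNrf2 wall libraries, and at 144 to 195 against 234 to 360 CPM in epithelial libraries. Smooth muscle markers summed to 37.8 to 136 CPM in epithelial libraries against 11143 to 15556 CPM in untreated wall. In bulk tissue, fewer cells of a type and less RNA per cell cannot be told apart.

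Of the secreted products, Adipoq, which encodes the hormone adiponectin, showed the pattern most plainly. The 4 untreated control wall libraries had 1.46, 33.9, 0.21 and 1.23 CPM in the order of their replicate numbers, and the 4 untreated caNrf2 libraries 11.02, 1.48, 1.46 and 0.23 CPM. Under DSS, control libraries had 1.41, 1.27, 4.53 and 5.78 CPM, and caNrf2 libraries 9.89, 16.4, 23.2 and 26.9 CPM. Thus 1 untreated library of each genotype, control replicate 2 and caNrf2 replicate 1, stood far above the other 3 of its group, and all 4 DSS-treated caNrf2 libraries were high. The 2 high untreated libraries were also the shallowest of their groups, at 22823697 and 21493177 counts.

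Cfd, which encodes adipsin, a protease of the alternative complement pathway, had the same 2 high untreated libraries. It was at 4.87, 82.1, 1.45 and 7.60 CPM in untreated control wall and at 55.4, 4.95, 7.76 and 1.19 CPM in untreated caNrf2 wall. It was at 9.81, 6.16, 33.8 and 39.4 CPM in DSS-treated control wall and at 62.4, 90.3, 123 and 144 CPM in DSS-treated caNrf2 wall. Every DSS-treated caNrf2 library thus lay above every DSS-treated control library, and untreated control replicate 2 lay within the DSS-treated caNrf2 range. Retn encodes resistin, a hormone of mouse adipocytes. Its levels were 1.14, 15.8, 0.09 and 0.61 CPM in untreated control wall, 4.54, 1.01, 0.73 and 0.10 CPM in untreated caNrf2 wall, 0.80, 0.73, 3.67 and 4.46 CPM under DSS in controls, and 4.17, 6.60, 9.75 and 15.9 CPM under DSS in caNrf2. Here the DSS groups overlapped by 1 library, caNrf2 replicate 1.

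Lep encodes leptin, the satiety hormone, and was the least abundant of the 8 per length in each of the 4 wall groups. Its levels were 0.09, 4.62, 0.01 and 0.02 CPM in untreated control wall, and the second value came from 108 counts where the third came from 1 count. In untreated caNrf2 wall they were 0.49, 0.05, 0.03 and 0.02 CPM, in DSS-treated control wall 0.09, 0.07, 0.30 and 0.36 CPM, and in DSS-treated caNrf2 wall 0.97, 0.56, 2.07 and 0.72 CPM. Apart from the 2 high libraries, leptin was at 0.09 CPM or less in untreated wall.

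Plin1, the perilipin of adipocyte droplets that gates lipolysis, was at 0.19, 8.14, 0.01 and 0.21 CPM in untreated control wall and at 1.57, 0.28, 0.22 and 0.02 CPM in untreated caNrf2 wall. DSS-treated control libraries had 0.77, 0.23, 1.16 and 0.62 CPM and DSS-treated caNrf2 libraries 1.91, 3.91, 6.35 and 4.77 CPM, so the DSS groups did not overlap. Cidec, which encodes a protein that fuses droplets, was at 2.13, 22.8, 1.97 and 0.73 CPM in untreated control wall and at 10.4, 2.68, 2.83 and 0.97 CPM in untreated caNrf2 wall. DSS-treated control libraries had 2.05, 2.36, 4.48 and 6.49 CPM and DSS-treated caNrf2 libraries 8.07, 16.98, 23.2 and 24.2 CPM, again without overlap. Of the 2 Plin1 transcripts, NM_001113471 took 86.1% of 980 wall counts, with 50% in untreated caNrf2 wall and 100% in DSS-treated control wall, each from 86 counts. The 50% came from 1 library, replicate 2, whose 43 counts were all assigned to NM_175640, while replicates 1, 3 and 4 had 0 counts of it. It is thus no difference between groups. Of the 2 Retn transcripts, NM_001204959 took 98.9% of 2310.

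Fabp4 was the most abundant member per length in each of the 6 groups, with group means of 101 to 250 transcripts per 1000000 (TPM) in wall. Its counts gave 23.0, 119, 26.4 and 20.0 CPM in untreated control wall and 59.3, 25.8, 23.4 and 22.7 CPM in untreated caNrf2 wall. Under DSS they gave 33.6, 45.0, 58.8 and 88.4 CPM in controls and 61.6, 70.5, 73.7 and 88.3 CPM in caNrf2. The same 2 untreated libraries were highest, but over a range of 5.92-fold across the 16 wall libraries, against 159-fold for Adipoq and 121-fold for Cfd.

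Plin4 encodes a perilipin that coats small nascent droplets, and it behaved otherwise. It was at 23.2, 35.7, 20.1 and 41.1 CPM in untreated control wall and at 34.8, 35.6, 41.4 and 34.6 CPM in untreated caNrf2 wall. With DSS, control libraries had 51.1, 67.4, 150 and 56.1 CPM, and caNrf2 libraries 98.3, 113, 69.2 and 90.5 CPM. No untreated library reached a DSS-treated one, and the 2 untreated libraries that were highest for the other members were not the highest of their groups for Plin4. Its highest library, DSS-treated control replicate 3, also had the highest summed smooth muscle markers, 39040 CPM against 9443 to 29879 CPM in the other DSS-treated wall libraries. It had the highest summed skeletal muscle markers of the DSS-treated libraries too, 109 CPM. That sum is a poor measure of skeletal muscle: it reached 105 CPM in untreated control wall and 115 CPM in caNrf2 epithelial libraries, where Acta1 averaged 74.4 CPM and Myh1, Myh2 and Myh4 had 0 counts. The part of muscle in the Plin4 level of this library was not tested.

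**Figure D1:**
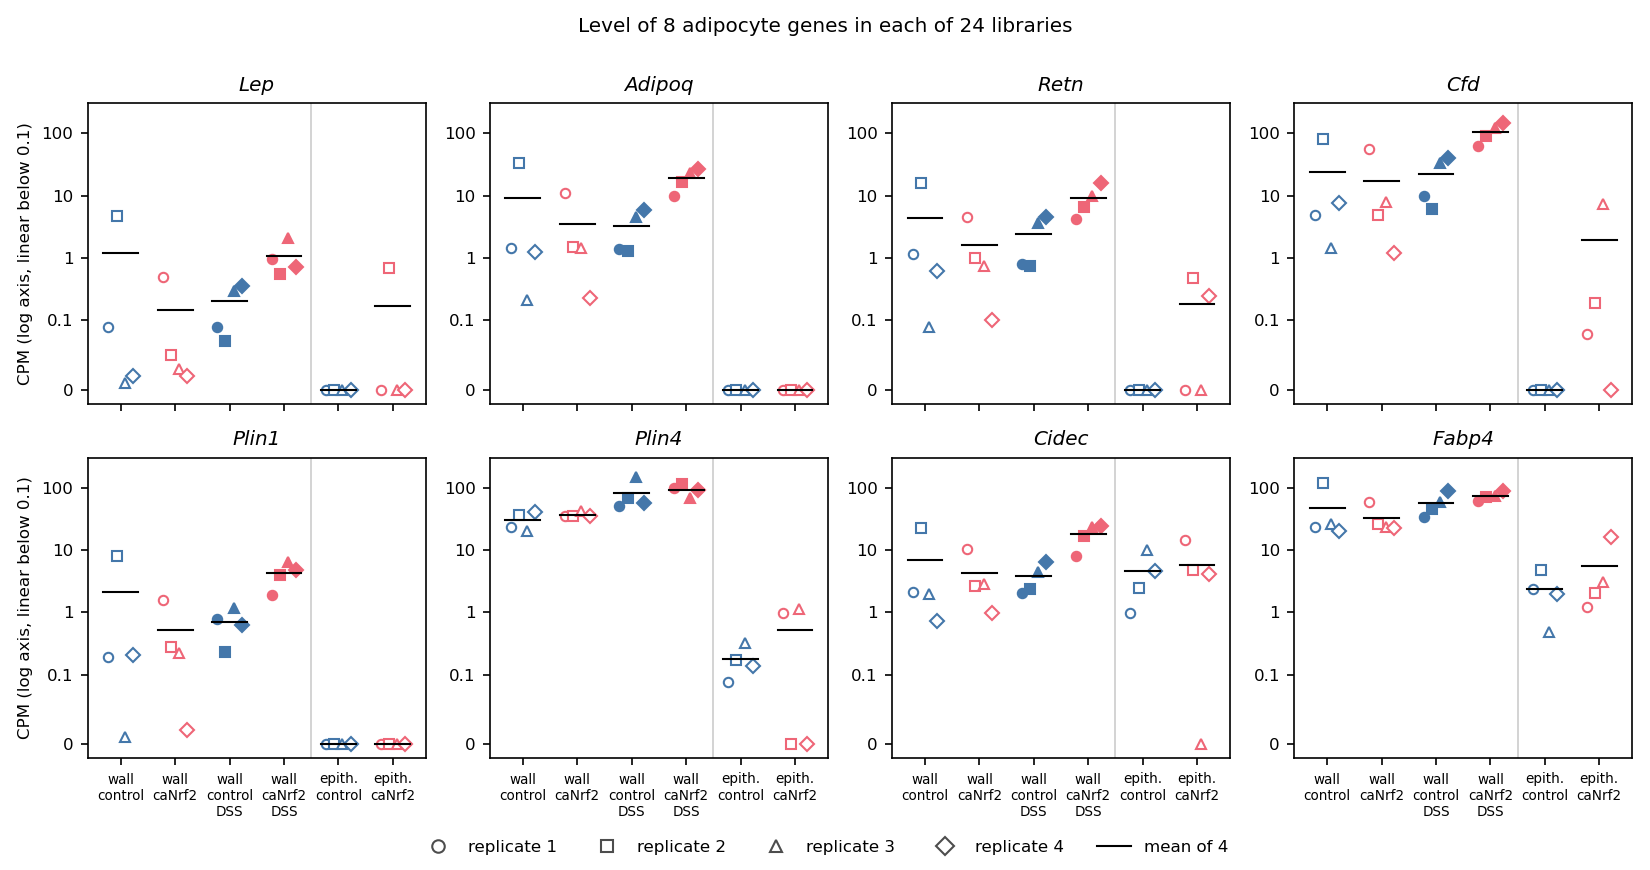
Level of each of the 8 genes in each of the 24 libraries, in CPM on a log axis that is linear below 0.1; each point is 1 library, its shape gives the replicate number, filled points were DSS-treated, red is caNrf2, and the bar is the mean of 4. Untreated control replicate 2 and untreated caNrf2 replicate 1 stand above their groups for every gene but Plin4, and Adipoq and Plin1 are at 0 in all 8 epithelial libraries.

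Within groups the members spread more than nearly all other genes. The pooled within-group SD of log2 CPM was 1.95 for Adipoq and Retn, 1.94 for Plin1, 1.82 for Lep, 1.81 for Cfd and 1.36 for Cidec, which placed these 6 at the 99.3 to 99.8 percentile of 16074 genes. It was 0.75 for Fabp4, at the 93.4 percentile, and 0.46 for Plin4, at the 74.9 percentile, while the median gene had 0.31. The spread was not the same in every group. For Adipoq it was 2.96 in untreated control wall, 2.18 in untreated caNrf2 wall, 1.11 under DSS in controls and 0.64 under DSS in caNrf2.

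The make-up of the 8-gene total changed with its size. In TPM, Fabp4 was 87.5% and Cfd 3.16% of the total in untreated control replicate 3, which had 82.6 TPM in all, whereas Fabp4 was 53.6% and Cfd 24.5% in replicate 2, which had 692 TPM. In the 4 DSS-treated caNrf2 libraries Fabp4 was 38.0 to 49.2% and Cfd 32.9 to 41.9%. Adipoq per Fabp4, as a ratio of TPM, was 0.0772 to 0.151 in these 4 and the 2 high untreated libraries, and 0.00388 to 0.0370 in the other wall libraries. Cfd per Adipoq was steadier, at 3.33 to 10.3 over the 16 wall libraries.

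The transgene was compared first in untreated wall, and no member passed. The fitted log2 difference of caNrf2 from control was below 0 for 7 of 8 members, from -3.36 ± 1.53 (SE) for Lep to -0.47 ± 1.08 for Cfd, and 0.29 ± 0.30 for Plin4. Adjusted p-values, from edgeR's quasi-likelihood test with Benjamini-Hochberg adjustment over all genes, were 0.456 to 0.931, and 0.224% of 16074 genes passed the threshold of 0.05 in this comparison. Of the 8, 1 had an unadjusted p under 0.05, as did 10.5% of all genes, and DESeq2 called 0 and limma voom 1, Plin4, where voom called 15.5% of all genes. The direction rested on control replicate 2: without it, all 8 fitted differences were above 0, with Adipoq at 1.82 ± 0.96, and 0 of 8 passed. The comparison shares its 4 untreated control libraries with that of DSS in control wall, so both carry that library.

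In control wall, Plin4 rose under DSS and no other member passed. Plin4 was at 81.1 ± 46.3 CPM against 30.0 ± 10.0 CPM untreated, a log2 fold change of 1.43 ± 0.30 (SE) with an adjusted p of 0.00194 by edgeR's test. This is 1 of 8 members called, against 39.2% of all genes called in either direction and 23.1% called higher, and Plin4 was the 1 member whose groups did not overlap, against 18.7% of genes with every DSS-treated library higher. Adipoq was at 3.25 ± 2.26 against 9.19 ± 16.5 CPM, with a fitted log2 fold change of -1.47 ± 1.18 and an adjusted p of 0.338. Cfd was at 22.3 ± 16.8 against 24 ± 38.8 CPM, with -0.08 ± 1.07 and an adjusted p of 0.956. Without control replicate 2 every member's fitted change was above 0, Adipoq's was 1.75 ± 0.96 and Cfd's 2.26 ± 1.0, and 2 of 8 passed, Plin4 and Fabp4, the latter at 1.29 ± 0.34 with an adjusted p of 0.0111, where 34.2% of all genes passed. This library was singled out by its own levels of these genes, so the values without it describe what it contributes and give no support of their own.

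DSS in caNrf2 wall went with higher fitted values of all 8 members, and again Plin4 passed by itself. Plin4 was at 92.7 ± 18.1 against 36.6 ± 3.20 CPM, a log2 fold change of 1.34 ± 0.30 (SE) with an adjusted p of 0.00267 by edgeR's test, so 1 of 8 members was called where 41.2% of all genes were called in either direction and 23.1% were called higher. The fitted log2 fold changes of the other 7 ran from 1.17 ± 0.50 for Fabp4 to 3.42 ± 1.51 for Lep, with adjusted p-values of 0.0583 to 0.109. Adipoq was at 19.1 ± 7.53 against 3.55 ± 5.02 CPM and Cfd at 105 ± 35.8 against 17.3 ± 25.5 CPM. The groups did not overlap for 5 of 8 members, Lep, Plin1, Plin4, Fabp4 and Cfd, against 18.3% of genes, and untreated replicate 1 was the library that reached the DSS-treated range for Adipoq, Cidec and Retn. All 8 members passed when untreated caNrf2 replicate 1 was left out (Adipoq 4.17 ± 1.34, adjusted p 0.0253), where 35.0% of all genes passed, and as that library was singled out by its own high levels, this too is no support. All 8 also passed when untreated control replicate 2 was left out (Adipoq 2.49 ± 0.86, adjusted p 0.0309, with 41.6% of all genes passing). It is in neither group of this comparison but enters the shared estimate of spread. As it too was singled out by its own levels of these genes, this is no support either. All 8 passed as well when the 2 groups were fitted alone, with 39.0% of all genes passing, a fit that also leaves that library out.

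**Figure D2:**
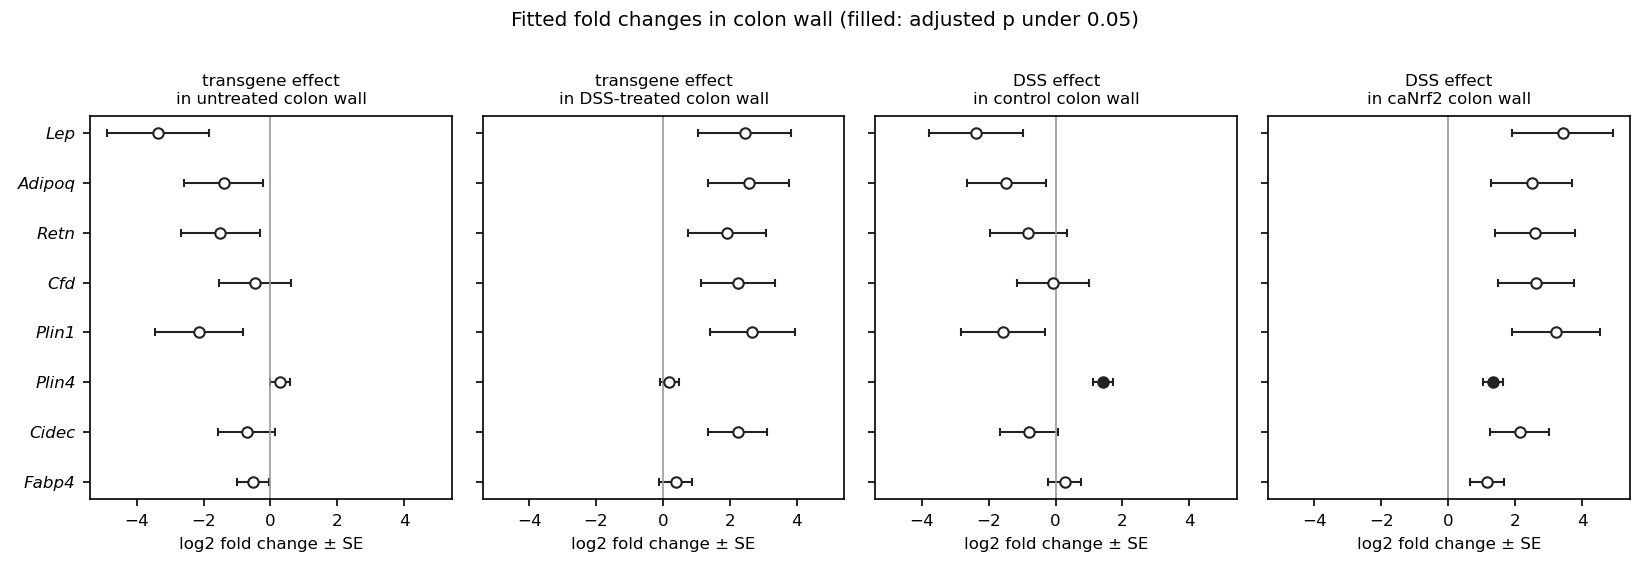
Fitted log2 fold change with its SE (horizontal bar) for each member in 4 colon wall comparisons, 4 libraries against 4 in each. Filled points, with adjusted p under 0.05, are those of Plin4 in the 2 DSS comparisons; in DSS-treated wall all 8 caNrf2 values lie above 0 and none is filled.

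**Figure D3:**
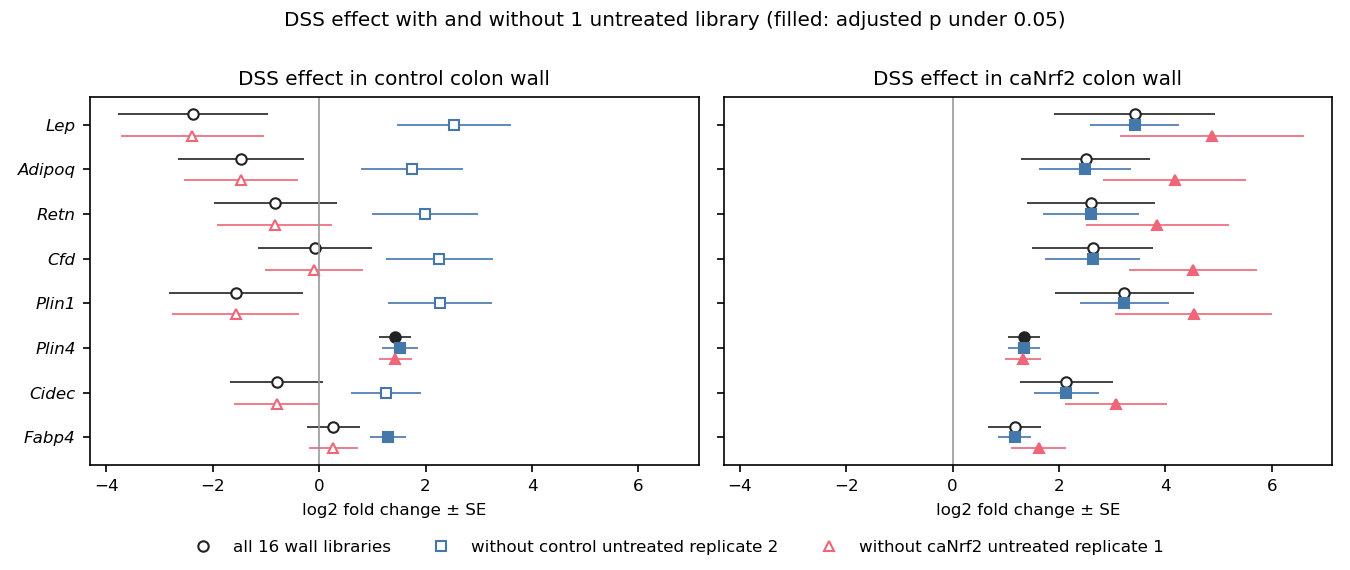
Fitted log2 fold change with its SE for the effect of DSS in control wall (left) and caNrf2 wall (right), from all 16 wall libraries, without untreated control replicate 2 and without untreated caNrf2 replicate 1; filled points have adjusted p under 0.05. Leaving out control replicate 2 moves Adipoq in controls from -1.47 to 1.75.

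Among DSS-treated libraries, caNrf2 wall had more Adipoq, Cfd, Cidec, Plin1 and Lep transcripts than control wall in all 4 libraries against all 4, but no member passed the test. That is 5 of 8 members without overlap, against 0.765% of all genes with every caNrf2 library higher, and these genes were chosen with this pattern known. The fitted log2 differences were 2.66 ± 1.27 (SE) for Plin1, 2.56 ± 1.21 for Adipoq, 2.44 ± 1.39 for Lep, 2.24 ± 1.11 for Cfd and 2.23 ± 0.89 for Cidec. Retn was at 1.92 ± 1.16 with 3 of 4 caNrf2 libraries above all controls, Fabp4 at 0.38 ± 0.49 and Plin4 at 0.19 ± 0.29. Adjusted p was 0.9999 for each by edgeR's test, where 0.0933% of 16074 genes passed. Unadjusted p was 0.0222 for Cidec, the lowest of the 8, and was under 0.05 for 2 of the 8 and for 2.53% of all genes, while DESeq2 and limma voom called 0 of 8.

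Whether DSS acted differently in the 2 genotypes was tested as an interaction, and 0 of 8 members passed. It was 3.96 ± 1.69 (SE, log2) for Adipoq with an adjusted p of 0.583, and 5.79 ± 2.07 for Lep with an adjusted p of 0.502, and 0% of all genes passed by edgeR's test, with 7.96% of them at an unadjusted p under 0.05, and 36 genes by DESeq2 and 113 by limma voom. Of the 8 members, 4 had an unadjusted p under 0.05, and DESeq2 and limma voom called 0. Without untreated control replicate 2 the value for Adipoq was 0.74 ± 1.24 and that for Lep 0.89 ± 1.54. For Plin4 it was -0.09 ± 0.42 with all libraries.

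Epithelial cells had few or no counts for 6 of the 8 genes. Adipoq and Plin1 had 0 counts in all 8 epithelial libraries, which places Adipoq at least 185-fold and Plin1 at least 38.5-fold below their means in untreated wall when 3 counts over the 8 libraries are taken as the floor. Untreated control wall replicate 2 carries much of those means, and without it the bounds are 70.8-fold and 10.4-fold. Lep, Retn and Cfd had 0 counts in all 4 control epithelial libraries, and in caNrf2 epithelial libraries Cfd had 98 of its 101 counts in replicate 3 and Lep its 7 counts in replicate 2. Plin4 had 36 counts in all over the 8 libraries, a mean of 0.354 CPM against 33.0 CPM in untreated wall. Plin4, Cfd, Adipoq and Retn passed the filter on low counts of the fit of untreated wall with epithelial cells through their wall levels, so their fitted differences are no test and are not given. Fabp4 passed the filter in epithelial libraries too, and was higher in wall (log2 3.44 ± 0.58 SE, adjusted p 0.000111 by edgeR's test), where 55.3% of genes were called in either direction and 27.9% called higher. DESeq2 gave Fabp4 no adjusted p in this comparison, with a fitted 3.51 ± 0.53, and limma voom called it at an adjusted p of 0.000564.

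Cidec was the other member that passed the filter in epithelial libraries. It had counts in 7 of 8 epithelial libraries, at 0.97, 2.46, 10.1 and 4.67 CPM in controls and 14.2, 4.73, 0 and 4.09 CPM in caNrf2, and did not pass against untreated wall (log2 0.04 ± 0.81 SE, adjusted p 0.973). Cidec was thus detected in libraries with 0 counts of Adipoq and Plin1. Fabp4 was at 2.40 ± 1.77 CPM in control and 5.53 ± 6.92 CPM in caNrf2 epithelial libraries. Neither gene, the 2 that could be tested, passed for the transgene in epithelial cells (Cidec 0.35 ± 1.12, adjusted p 0.962, and Fabp4 1.22 ± 0.89, adjusted p 0.712), where 0% of 12941 genes passed by edgeR's test, with 1344 at an unadjusted p under 0.05, and 163 passed by DESeq2 and 1292 by limma voom.

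Across the 16 wall libraries, after the mean of each group was subtracted, 7 members followed each other. Pearson's r between pairs of these 7 was 0.80 to 0.99, highest for Adipoq with Retn, while r of Plin4 with the others was 0.07 to 0.34. The gene nearest to Plin4 over all genes was Vamp1, a vesicle fusion protein, at r = 0.94. Without the 2 high untreated libraries, a choice made after seeing the data, r between pairs of the 7 was 0.09 to 0.99. These values are given with no p, since the points share libraries and the members were picked for their spread.

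The 12 genes outside the 8 whose centred levels were most like the members' mean were Car3, Cyp2e1, Slc7a10, A530016L24Rik, Scd1, Amy1, Abcd2, Serpina3c, Adig, Orm1, Mrap and Thrsp, with r from 0.99 to 0.87 over 16 libraries, and 11 of 16066 genes reached 0.9. Car3, which encodes carbonic anhydrase 3, was closest. It was at 5.89, 117, 1.67 and 6.57 CPM in untreated control wall, 38.4, 5.63, 8.37 and 1.84 CPM in untreated caNrf2 wall, 8.15, 4.91, 22.3 and 19.9 CPM under DSS in controls and 42.7, 71.4, 93.1 and 95.8 CPM under DSS in caNrf2. Its order of libraries was close to that of Adipoq, with the same 2 untreated libraries high. Without those 2 libraries, r was 0.66 to 0.97 for the 12, and 6 of them were still among the nearest 12.

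**Figure D4:**
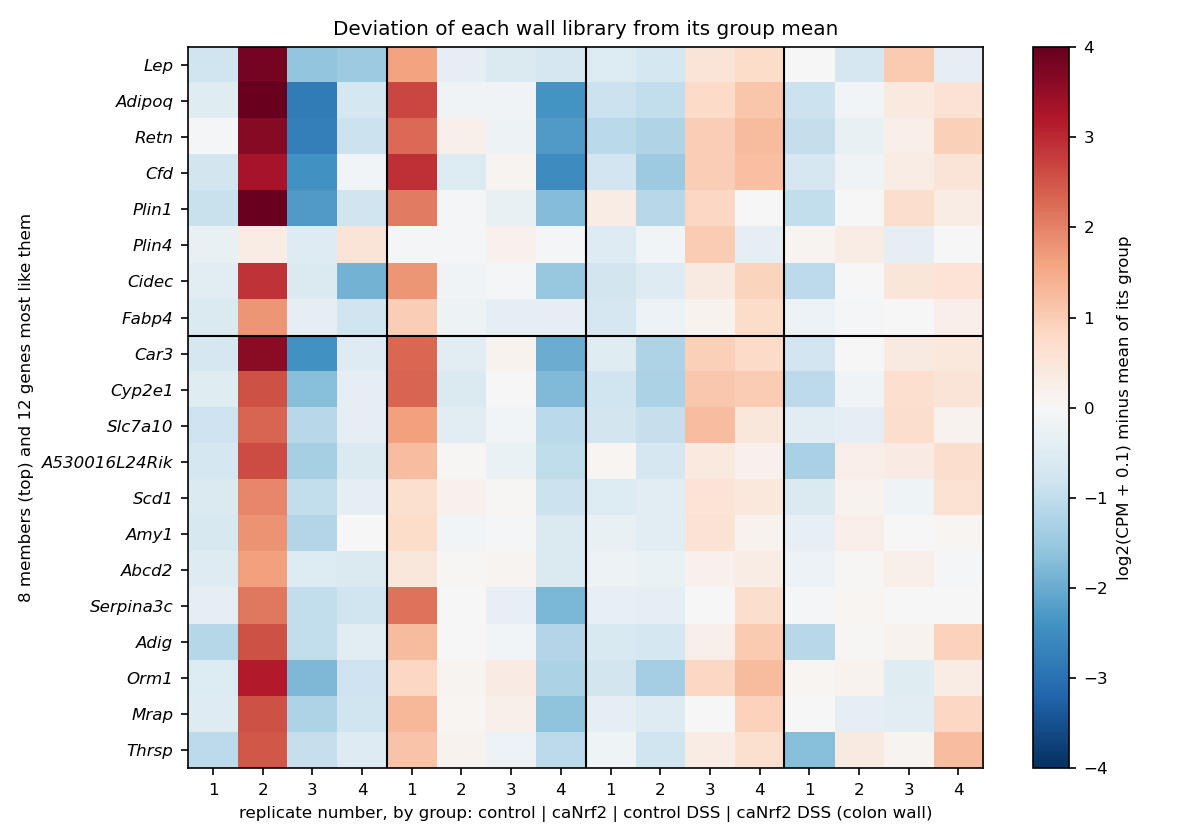
Deviation of each of the 16 wall libraries from its group mean, in log2(CPM + 0.1), for the 8 members (above the line) and the 12 genes most like their mean (below it); columns are libraries in 4 groups, red is above and blue below the group mean. Untreated control replicate 2 and untreated caNrf2 replicate 1 are red in every row, faintly or not at all in that of Plin4.

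Mesothelium markers were high in the same 2 untreated libraries as the members. The sum of 7 such markers (Msln, Upk3b, Upk1b, Wt1, Lrrn4, Bnc1 and Gpm6a; an 8th had no value) was 5.42, 21.1, 4.05 and 2.51 CPM in untreated control wall and 25.5, 7.22, 6.59 and 1.39 CPM in untreated caNrf2 wall. Under DSS it was 5.64, 7.20, 6.14 and 39.3 CPM in controls and 28.5, 55.9, 18.4 and 22.2 CPM in caNrf2. Libraries under DSS did not keep 1 order for both: control replicate 3 had 47.9 CPM summed over the members other than Plin4 and Fabp4 but 6.14 CPM of the markers, and caNrf2 replicate 4 had the highest sum of those members, 216 CPM, with 22.2 CPM of the markers. None of the 7 was at 0 in any whole group, and 0 of 7 passed for DSS in either genotype, where 39.2% and 41.2% of all genes passed. Fitted changes with DSS were above 0 for 6 of 7 in controls (median log2 1.33) and 7 of 7 in caNrf2 (1.73). For the transgene they were above 0 for 7 of 7, with a median of 0.45 untreated and 0.96 under DSS, and 0 passed. The labels do not say how much serosa and attached fat a piece carried, and the part of attached fat in the spread of the members was not tested. Epithelial libraries, with 0 counts of Adipoq, had 3.59 to 24 CPM of the same sum. Ucp1, the defining gene of brown fat, had at most 2 counts in any wall library, and the sum of the 8 brown and beige markers was 56.4 to 122 CPM in untreated and 44.8 to 109 CPM in DSS-treated wall. This sum is no measure of brown or beige fat, as epithelial libraries had up to 127 CPM of it. In untreated caNrf2 wall it was mostly Ppargc1a, Cox7a1 and Prdm16, with means of 61.1, 32.5 and 13.5 CPM.

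**Figure D5:**
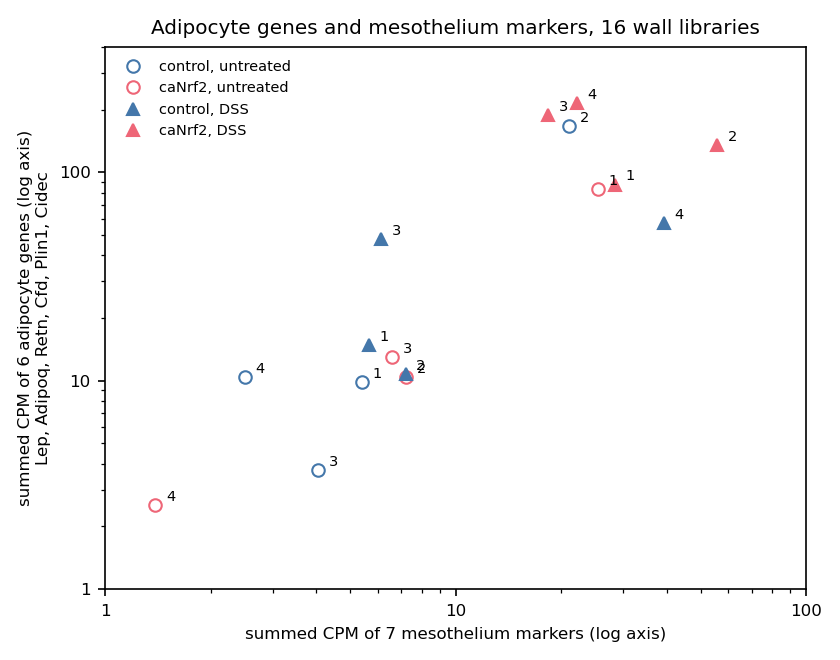
Summed CPM of 6 members (Lep, Adipoq, Retn, Cfd, Plin1 and Cidec) against summed CPM of 7 mesothelium markers in the 16 wall libraries, both on log axes; numbers are replicate numbers. Untreated control replicate 2 and caNrf2 replicate 1, the 4 DSS-treated caNrf2 libraries and DSS-treated control replicate 4 lie at 18.4 CPM or more of the markers, and the other 9 libraries at 7.22 CPM or less.

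Genes of other lists of lipid metabolism were called in part, where 39.2% of all genes were called under DSS in control and 41.2% in caNrf2 wall, 23.1% higher in each. Like the lists of the paragraphs that follow, these lists were chosen with earlier results of these data known, so their calls are a description. Of the 12 genes nearest to the members, 4 belong to these lists, Car3 and Adig to the droplet list and Scd1 and Thrsp to that of fatty acid synthesis. None of the 4 passed for DSS in either genotype (Scd1, a fatty acid desaturase, had the lowest adjusted p, 0.0559 by edgeR, at 1.33 ± 0.53 SE in caNrf2). Outside the lists, Abcd2 (1.69 ± 0.46, adjusted p 0.0089 by edgeR), Amy1 (1.90 ± 0.54, 0.011) and A530016L24Rik (3.13 ± 1.04, 0.0242) passed in caNrf2 wall. The rest of the 12 did not pass there, and none of the 12 passed in control wall. Of 9 lipolysis genes, 4 rose and 0 fell under DSS in control wall, including Mgll, the monoglyceride lipase (log2 0.92 ± 0.19 SE, adjusted p 0.00185). In caNrf2 wall 6 rose and 0 fell, including Pde3b, the phosphodiesterase through which insulin restrains lipolysis (0.84 ± 0.14, 0.000463), and Npr3, a natriuretic peptide clearance receptor (1.91 ± 0.54, 0.0103). The list's median log2 change was 0.38 and 0.84, beside 0.06 and 0.01 over all genes. Among 15 other droplet genes tested, 4 rose and 1 fell in controls and 5 rose and 2 fell in caNrf2. G0s2, an inhibitor of adipose triglyceride lipase, was at 1.31 ± 0.24 (0.000838) and 1.13 ± 0.24 (0.00185). Lgals12, a galectin known from adipocytes, was at -1.17 ± 0.40 (0.0303) and -1.58 ± 0.41 (0.00646). Its level was higher in control and caNrf2 epithelial libraries (101 ± 41.4 and 78.8 ± 36.8 CPM) than in untreated wall (26.3 ± 7.42 and 30.8 ± 3.88 CPM). The median of the droplet list was -0.08 in controls and 0.92 in caNrf2. Of 13 genes of fatty acid uptake and triglyceride synthesis, Slc2a4, the insulin-responsive glucose transporter, and Cd36, a fatty acid translocase, rose in both genotypes (Cd36 1.12 ± 0.28, adjusted p 0.00503, and 1.31 ± 0.28, 0.00181), 3 fell in controls and 0 in caNrf2. Of 9 genes of fatty acid synthesis, 1 rose and 2 fell in each genotype, with Mlxipl, the carbohydrate response factor, at -2.19 ± 0.36 (0.000405) and -1.92 ± 0.35 (0.000767).

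Of the regulators, Pparg, the receptor that drives adipocyte differentiation and is also made by colon epithelium, fell under DSS in both genotypes (-1.17 ± 0.28, adjusted p 0.00419, and -1.24 ± 0.28, 0.00271), while Zfp423 and Ebf2, factors of adipocyte precursors, rose (Ebf2 2.07 ± 0.49, 0.00413, and 2.43 ± 0.48, 0.00121). In all, 4 of 9 such factors rose in controls and 5 in caNrf2, with 1 falling in each. For this and the next lists, 39.2% of all genes were called in control and 41.2% in caNrf2 wall, 23.1% higher in each. Of 6 genes listed as receptors for the secreted members, with Tlr4 and Cap1 counted among the 6, 4 rose and 0 fell in each genotype. Those that rose included Cdh13, a binding protein of adiponectin on endothelium (1.58 ± 0.18, 5.81e-05, and 1.29 ± 0.18, 0.000121), and Lepr, the leptin receptor (0.78 ± 0.23, 0.0142, and 1.0 ± 0.23, 0.00337). The adiponectin receptors Adipor1 and Adipor2 did not pass in either genotype. Of 6 tested genes of the alternative complement pathway, in which Cfd acts, 6 rose in controls and 5 in caNrf2. Retnla and Retnlg, relatives of Retn made by other cells, rose in both genotypes. Among 5 relatives of Fabp4, Fabp6 and Fabp2, of enterocytes, fell in both. Of the same 5, Fabp5 rose in controls (1.14 ± 0.40, 0.0343) and Fabp7 in caNrf2 (1.56 ± 0.44, 0.0112). For the transgene, untreated or under DSS, 0 genes of every one of these lists passed, where 0.224% and 0.0933% of all genes passed.

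Markers of cells that can also hold Fabp4 rose under DSS, where 39.2% of all genes were called in control and 41.2% in caNrf2 wall, 23.1% higher in each. All 8 blood endothelium markers rose in both genotypes (Pecam1 1.5 ± 0.15, adjusted p 2.21e-05, and 1.23 ± 0.15, 6.23e-05), with a sum of 112 to 151 CPM in untreated and 284 to 397 CPM in DSS-treated wall, and all 9 macrophage markers rose in both. Of 10 markers listed for fibroblasts of the outer wall, 9 rose and 1 fell in each genotype. Their sum was 372 to 449 CPM in the 8 untreated libraries, 421 and 386 CPM in the 2 libraries high for the members. Dcn alone was at 191 ± 15.3 CPM in untreated control and 187 ± 20.1 CPM in untreated caNrf2 wall, so the sum says little of scarcer markers. Pi16, for one, ran from 1.85 to 8.91 CPM in untreated control and from 1.65 to 3.01 CPM in untreated caNrf2 wall. The part of these cells in the levels of Fabp4 and Plin4 was not tested.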

How the data were processed

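The authors deposited, for each library and transcript, expected counts and TPM from RSEM 1.2.11 on mm10, per the submitters' processing notes and the file headers; read counting options were not found in those sources. Deposited expected counts were summed per symbol and rounded, and tested with edgeR 4.0.16 in R 4.3.3 (quasi-likelihood F test, TMM, filterByExpr, Benjamini-Hochberg adjustment over all genes, threshold 0.05). The 16 wall libraries were fitted together with 4 group means (16074 genes), the 8 epithelial libraries alone (12941 genes), and untreated wall with epithelial libraries jointly (15073 genes). Deposited TPM were summed per symbol to compare levels between genes. SE was taken from the log2 fold change and its F statistic. All 8 members passed the filter on low counts in wall, 2 in epithelium and 6 in the joint fit. The fit was tested on simulated counts with known changes. Likeness was Pearson's r of log2 CPM (prior count 2) after subtracting group means. From each other list at most 3 genes a comparison, those of smallest p, are named as called. The series text speaks of triplicates, and 4 libraries a group were labelled and used. All 36 pairs of libraries of 1 group differed by more than sampling noise. DESeq2 1.42.0, limma 3.58.1 (voom with quality weights), other scaling, no filter, a replicate block, 2-group fits, robust dispersion and leaving out libraries were the alternatives. The members and lists were chosen with earlier results of these data known.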

Additional observations from a re-analysis of the deposited data

Results flagged for a closer look

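With 4 libraries a group, the gap of a level to the nearest of the other 3 was taken as a share of the group's range. A level was singled out when the share exceeded Dixon's critical value, which chance does in about 1 in 20 groups. Of 41 combinations of a member and a group that could be examined, 17 were singled out. The members were chosen with the wide spread of several between wall libraries known, and 7 of them followed each other across those libraries. The 41 are thus not independent, and setting the 17 against 1 in 20 is no test. Untreated control wall replicate 2 stood out for 7 members, at 4.62 CPM for Lep, 33.9 for Adipoq, 15.8 for Retn, 82.1 for Cfd, 8.14 for Plin1, 22.8 for Cidec and 119 for Fabp4. Untreated caNrf2 wall replicate 1 stood out for 5, at 0.495 CPM for Lep, 11 for Adipoq, 55.4 for Cfd, 1.57 for Plin1 and 59.3 for Fabp4. Plin4 stood out in untreated caNrf2 wall replicate 3 at 41.4 CPM and in DSS-treated control wall replicate 3 at 150 CPM. Among caNrf2 epithelial libraries, Lep stood out in replicate 2 at 0.676 CPM, from 7 counts, Fabp4 in replicate 4 at 15.9 CPM and Cfd in replicate 3 at 7.42 CPM. No library of DSS-treated caNrf2 wall stood out for any member.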

How the results depend on the processing

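The number of members called was unchanged in every comparison under DESeq2 size factors, robust dispersion, the replicate block and without the 4 wall libraries numbered 4, whose files carry another leading number in their names. limma voom with quality weights, which gives less weight to libraries that stand apart, called 1 member for the transgene in untreated wall, 2 for DSS in control wall and 8 for DSS in caNrf2 wall, where the 2 groups fitted alone also gave 8. Without both untreated control replicate 2 and caNrf2 replicate 1, an alternative added after seeing the data, DSS called 5 members in control and 8 in caNrf2 wall. Leaving out 1 library at a time gave 1 to 2 for DSS in control wall and 1 to 8 for DSS in caNrf2 wall. Adipoq under DSS in control wall was -1.47 with all libraries, 1.18 with voom, 1.75 without those 2 libraries and -1.99 to 1.75 leaving out 1; for the transgene in untreated wall it was -1.40, 1.07, 0.14 and -3.08 to 1.82. Fabp4 under DSS in control wall was 0.27, -0.33 without the libraries numbered 4, and -0.03 to 1.29 leaving out 1. The interaction for Plin4 ran from -0.28 to 0.38 leaving out 1, the epithelial transgene effect from -0.65 to 1.19 for Cidec and from -0.15 to 1.80 for Fabp4. Between untreated wall and epithelial cells, Cidec was 0.04, -0.07 with voom, -0.49 with the replicate block and -1.0 to 0.58 leaving out 1, and members called were 5, 3 with DESeq2, which gave Adipoq and Fabp4 no adjusted p, and 6 with no filter; 4 of the 5 entered through their wall levels. The median within-group SD of the members was 1.82 from counts and 1.46 from deposited TPM. Apart from what the number of libraries and the weights imply, the cause was not tested. A further 41 values of single genes crossed the threshold upward and 0 downward. Deviations of same-numbered libraries were weakly correlated (r -0.328 to 0.287 over 24 pairs, 3 of them over 0.1), and 3 matched best with their own number. The labels do not say what the numbers mark, and weak correlation cannot decide whether they pair the samples. The block gave 7 genes for the transgene in untreated wall against 36 and 0 under DSS against 15. For all genes, voom gave 2491, DESeq2 233 and the fit without libraries numbered 4 404 for the transgene in untreated wall. Fitting only the groups compared was not run for the interaction, which needs all 4. Depth limits Lep and Plin1, with 1 count in their lowest wall library, and all members but Cidec and Fabp4 in epithelial cells.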

Other observations

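2 genes picked after their values were seen shared the high untreated libraries. Retnlb, a resistin relative made by goblet cells, was at 1.37, 57.0, 0.975 and 0.748 CPM in untreated control wall and at 15.8, 1.59, 2.77 and 1 CPM in untreated caNrf2 wall, and at 1169 to 6429 CPM in epithelial libraries. Under DSS it was at 465, 50.6, 20.8 and 45.9 CPM in control and 25.4, 37.0, 15.3 and 9.81 CPM in caNrf2 wall. Lpl, the lipoprotein lipase of fat and muscle, was at 59.1 CPM in untreated control replicate 2 and 22.9 CPM in untreated caNrf2 replicate 1, against 6.49 to 14.4 CPM in the other 6 untreated wall libraries, and at 22.3, 28.0, 22.5 and 50 CPM in control and 46.7, 48.3, 48.8 and 38.1 CPM in caNrf2 wall under DSS.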
